A study of Mus musculus with 16 samples.

Results

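The nuclear tRNA-Val isodecoders were all transcripts named tRNA-Val-AAC, tRNA-Val-CAC or tRNA-Val-TAC, taken by name and without regard to their level. They made up 14 of the 819 rows of the fibroblast count table and 14 of the 821 rows of the heart count table. Both tables list 5 tRNA-Val-AAC rows, 8 tRNA-Val-CAC rows and 1 tRNA-Val-TAC row. The row tRNA-Val-AAC-1/5 joins a pair of isodecoders that the authors counted together. The mitochondrial tRNA-Val and the rows named tRX-Val are not members.

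Isodecoders are tRNAs that share an anticodon and differ elsewhere in the body of the molecule. Nuclear tRNA genes are transcribed by RNA polymerase III, and their tRNA-Val products deliver valine to cytosolic ribosomes. In the AAC anticodon the adenosine at the wobble position is converted to inosine, which widens the set of valine codons read. The CAC anticodon reads the codon GUG, and the TAC anticodon reads mainly GUA. Because members of an anticodon carry the same amino acid to the same codons, a shift between them can leave the total for the anticodon where it was.

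The study edited mitochondrial DNA at the gene of mitochondrial tRNA-Ala, and measured tRNA abundance by mim-tRNAseq, a method that sequences tRNA as cDNA and assigns reads to single transcripts. Of the 16 libraries, 8 came from mouse embryonic fibroblasts (MEFs) of 4 lines, labelled Ctrl_1, Cl_1, Cl_2 and Cl_3, with 2 libraries each. The labels give the fibroblast libraries of a line as passages of that line, so their p-values measure the spread between passages, and each line stands alone as a model. The other 8 libraries came from single hearts, all of the m.5024T mouse model. In 4 of these mice the vector AAV9, an adeno-associated virus that reaches the heart, carried green fluorescent protein (AAV9-GFP; mice 5 and 6 labelled 5X, mice 14 and 19 labelled 3X). In the other 4 it carried DdCBE, a cytosine base editor for mitochondrial DNA (AAV9-DdCBE; mice 17 and 18 labelled 10X, mouse 25 labelled 5X, mouse 26 labelled 2X). The labels explain neither Ctrl and Cl nor the X values, and give no age or sex for the groups. Both tables hold tRNA rows only, so the tissue could not be checked against marker genes, and in the hearts fewer cells of a type and less RNA per cell cannot be told apart.

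Depth ran from 1473330 to 4375975 counts per MEF library and from 1540287 to 3037178 per heart. The mitochondrial tRNA-Ala, the gene to be edited, averaged 1626 ± 550 CPM (counts scaled to library size) in the AAV9-GFP hearts and 4025 ± 2026 in the AAV9-DdCBE hearts (SD, n = 4 each), and it was lower in all 6 Cl libraries (104 to 287 CPM) than in the 2 Ctrl_1 libraries (456 and 588 CPM). Mouse 17 stood apart by its share of mitochondrial tRNA counts, which was 59.9% against 37.4% to 44.5% in the other hearts. Mice 14 and 25 had the lowest depth of the hearts, 1540287 and 1646074 counts. Values below are given with these hearts included, and without them where a result moved.

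Nuclear tRNA-Val took 4.59% to 5.28% of nuclear tRNA counts in MEF libraries, against 2.61% to 3.74% in hearts. Within each anticodon the counts were concentrated in a single isodecoder, called the leading one here: tRNA-Val-AAC-1/5 for AAC, tRNA-Val-CAC-2 for CAC and tRNA-Val-TAC-1, the sole row, for TAC. In the AAV9-GFP hearts tRNA-Val-AAC-1/5 held 98.1% ± 0.730 of its anticodon and tRNA-Val-CAC-2 held 98.7% ± 0.422 (SD, n = 4). In the MEF line Ctrl_1 the same isodecoders held 80.9% and 81.6% of AAC, and 87.2% and 87.8% of CAC. Summed over an anticodon, the remaining members were therefore rare in control hearts and common in control fibroblasts. This did not hold for each of them, since tRNA-Val-CAC-4, CAC-6 and CAC-8 were rare in the fibroblasts too. These shares are shares of counts in a library and do not depend on scaling, but the tables were prepared separately and the difference between hearts and fibroblasts was not tested.

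The filter on low counts left 9 of the 14 rows for testing in the hearts and 11 of 14 in the MEFs, so counts of members that passed a test refer to these rows and not to the whole family. tRNA-Val-AAC-6 and tRNA-Val-CAC-5 had 0 counts in all 16 libraries. tRNA-Val-CAC-7 had 0 or 1 count per heart and 1 to 6 per MEF library. In the hearts tRNA-Val-CAC-6 had 0 to 2 counts and tRNA-Val-CAC-8 had 0 to 7, and both entered the tests only in the MEFs. Reads shared between isodecoders of near-identical sequence may have been divided between rows, and how this was done is not given in the sources used here, so values of single members are less certain than totals of an anticodon.

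The rare members tested were more abundant in both hearts labelled 10X than in every other heart, and much more so for all but tRNA-Val-CAC-4. Levels are CPM scaled by TMM, a method that equalises libraries on the bulk of their transcripts. tRNA-Val-AAC-2, the largest of the rare AAC isodecoders, had 73.7, 79.5, 82.5 and 91.7 CPM in AAV9-GFP mice 5, 6, 14 and 19, against 825 and 589 CPM in 10X mice 17 and 18 and 104 and 126 CPM in mice 25 (5X) and 26 (2X). tRNA-Val-AAC-3 had 34.6, 27.1, 30.3 and 29.4 CPM in the AAV9-GFP hearts in the same order, then 366 and 251 CPM in the 10X hearts and 25.7 and 35.8 CPM in mice 25 and 26. The 10X hearts did not overlap with any other heart in either isodecoder, and mice 25 and 26 lay close to or within the AAV9-GFP range. Separation of this kind was not counted over the other transcripts. Of all 180 tested, 43 were called higher in the 10X hearts against AAV9-GFP by edgeR. tRNA-Val-AAC-4, the rarest of the AAC members tested in the hearts, had 11.4, 14.2, 12.9 and 8.85 CPM with AAV9-GFP, 266 and 173 CPM in the 10X hearts, and 17.7 and 11.8 CPM in mice 25 and 26. Its 10X hearts again stood clear of all others, and mouse 17 was the higher of the pair, as it was for all 6 rare members.

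The rare CAC isodecoders had the same arrangement of hearts. tRNA-Val-CAC-1 had 27.7, 21.2, 25.1 and 20.5 CPM in AAV9-GFP mice 5, 6, 14 and 19, 407 and 250.5 CPM in mice 17 and 18, and 38.8 and 40.8 CPM in mice 25 and 26. tRNA-Val-CAC-3, the largest rare CAC member, had 60.5, 44.5, 50.3 and 51.1 CPM with AAV9-GFP, 633 and 369.9 CPM in the 10X hearts, and 65.6 and 67.3 CPM in mice 25 and 26. For both, mice 25 and 26 lay above the highest AAV9-GFP heart and well below either 10X heart. tRNA-Val-CAC-4 moved least, with 32.3, 24.4, 12.9 and 29.8 CPM with AAV9-GFP, 79.0 and 52.5 CPM in the 10X hearts, and 20.5 and 28.6 CPM in mice 25 and 26.

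**Figure D1:**
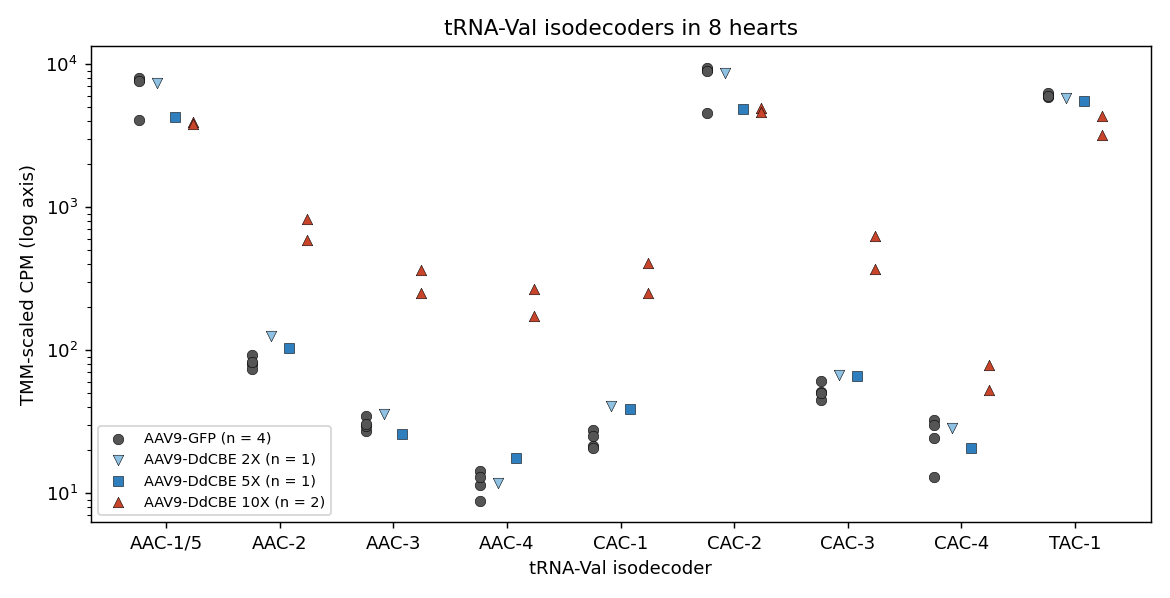
TMM-scaled CPM on a log axis for the 9 tRNA-Val isodecoders tested in the hearts, 1 point per heart, coloured by vector and X label. For AAC-2, AAC-3, AAC-4, CAC-1, CAC-3 and CAC-4 both 10X hearts lie above the other 6. Separation of this kind was not counted over the other transcripts. For AAC-1/5 and CAC-2 an AAV9-GFP heart (mouse 14) lies among the low points.

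The leading isodecoders split the hearts differently. tRNA-Val-AAC-1/5 had 7986, 7818, 4059 and 7668 CPM in AAV9-GFP mice 5, 6, 14 and 19, 3929 and 3844 CPM in the 10X hearts, 4261 CPM in mouse 25 and 7382 CPM in mouse 26. tRNA-Val-CAC-2 had 9487, 9096, 4580.4 and 9046 CPM with AAV9-GFP, 4954 and 4660.1 CPM in the 10X hearts, 4857 CPM in mouse 25 and 8764 CPM in mouse 26. Mice 14, 17, 18 and 25 were thus low in both and mice 5, 6, 19 and 26 high, a division that crosses the vectors. tRNA-Val-TAC-1 did not follow it, since it had 6110.3, 5926, 6041 and 6249 CPM with AAV9-GFP, 3198 and 4341 CPM in the 10X hearts, 5524 CPM in mouse 25 and 5810.4 CPM in mouse 26. Mouse 14, low in the leading AAC and CAC members, was within the AAV9-GFP range for TAC.

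Across all 4 AAV9-DdCBE hearts against all 4 AAV9-GFP hearts, the edgeR quasi-likelihood test called 0 of the 9 tRNA-Val transcripts and 0% of the 180 transcripts tested at an adjusted p of 0.05. At an unadjusted p under 0.05, 35 of the 180 transcripts passed, and DESeq2, another count test, called 27 of 180 and 5 of the 9 tRNA-Val transcripts, all higher. The fitted log2 differences were 2.33 (SE 0.64) for tRNA-Val-AAC-2, 2.48 (SE 0.78) for AAC-3, 3.31 (SE 0.92) for AAC-4, 2.96 (SE 0.75) for CAC-1, 2.46 (SE 0.71) for CAC-3 and 0.86 (SE 0.48) for CAC-4. The leading members gave -0.50 (SE 0.27) for AAC-1/5, -0.47 (SE 0.28) for CAC-2 and -0.37 (SE 0.18) for TAC-1. Without mouse 25, or without mouse 26, 5 tRNA-Val transcripts passed, all higher.

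The AAV9-DdCBE hearts were then split by X label, a split chosen with earlier results of these data known. No AAV9-GFP heart was labelled 10X. Wherever 10X hearts are compared with AAV9-GFP hearts, vector and X label change together and cannot be told apart. With the 2 hearts labelled 10X against the 4 AAV9-GFP hearts, 8 of 9 tRNA-Val transcripts passed, 6 higher and 2 lower. Of all transcripts tested 51.7% were called. The log2 rise was 4.21 for AAC-4 (18.6-fold, SE 0.28), 3.80 for CAC-1 (13.9-fold, SE 0.27), 3.35 for AAC-3 (10.2-fold, SE 0.24) and 3.11 for AAC-2 (8.63-fold, SE 0.22), each at an adjusted p of 8.23e-06 by edgeR. It was 3.28 for CAC-3 (9.72-fold, SE 0.26, adjusted p = 1.90e-05) and 1.39 for CAC-4 (2.62-fold, SE 0.35, adjusted p = 0.0131). The rise of CAC-4 did not pass without mouse 17 (1.06, edgeR adjusted p = 0.140). The other 5 rises passed without mouse 17 too, at log2 2.84 to 3.87.

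In fold change, though not in CPM, the falls of the leading members were small beside these rises. tRNA-Val-TAC-1 fell 1.61-fold (log2 -0.69, SE 0.16, edgeR adjusted p = 0.00915) and tRNA-Val-AAC-1/5 fell 1.77-fold (log2 -0.82, SE 0.27, edgeR adjusted p = 0.0342), while tRNA-Val-CAC-2 missed the threshold at -0.74 (SE 0.28, edgeR adjusted p = 0.0547). The median of all transcripts tested was itself at -0.23 in this contrast, and relative to that median the values were -0.46, -0.60 and -0.52. Scaling on nuclear rows alone, which put the median at -0.04, gave TAC-1 -0.42 (edgeR adjusted p = 0.0134) and AAC-1/5 -0.54 (edgeR adjusted p = 0.136). The fall of AAC-1/5 passed in 1 of its 13 alternatives, the one without mouse 14 (-1.01, edgeR adjusted p = 2.36e-04), and in none of the others, DESeq2 (-0.63, adjusted p = 0.0620) included. Without mouse 14 the fall of CAC-2 passed too (-0.94, edgeR adjusted p = 4.78e-04). The fall of TAC-1 was lost in 4 of 13 alternatives: without mouse 5 (-0.51, edgeR adjusted p = 0.0929), without mouse 6 (-0.53, 0.0990), with library totals (-0.57, 0.0835) and with no filter (-0.47, 0.0709).

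Within the AAV9-DdCBE hearts, the 10X pair was set against the mean of mice 25 and 26, which are single hearts of their labels and were assumed to vary like the others. Of the 9 tRNA-Val transcripts 7 passed, 6 higher and 1 lower, where 31.1% of all transcripts tested were called. The log2 differences were 3.92 (SE 0.36) for AAC-4, 3.35 (SE 0.31) for AAC-3, 3.04 (SE 0.34) for CAC-1, 2.91 (SE 0.34) for CAC-3, 2.63 (SE 0.27) for AAC-2 and 1.44 (SE 0.43) for CAC-4, the last at an edgeR adjusted p of 0.0384. tRNA-Val-TAC-1 was lower by -0.59 (SE 0.18, edgeR adjusted p = 0.0413), and AAC-1/5 (-0.53, SE 0.30) and CAC-2 (-0.44, SE 0.32) did not pass. The call of CAC-4 was lost without mouse 17, 19, 25 or 26, and that of TAC-1 in most alternatives, DESeq2 (-0.42, adjusted p = 0.0854) and nuclear rows only (-0.31, edgeR adjusted p = 0.0871) among them.

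Set beside other nuclear tRNAs in the 10X hearts, the median log2 difference was 3.11 over the 9 tRNA-Val transcripts, -0.31 over all 158 nuclear transcripts and -0.23 over all 180 tested. Of the 26 tested transcripts of other anticodons with A at the wobble position, 8 rose and 8 fell, with a median of -0.29. Of the 20 tested tRNA-Ile and tRNA-Leu transcripts, which carry the other branched-chain amino acids, 3 rose and 8 fell, with a median of -0.44. Of all nuclear transcripts 41 rose and 50 fell. The tRNA-Val median is set by the fact that rare members outnumber leading ones among the rows, so it describes rows and not molecules.

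The 3 transcripts whose log2 CPM over the 8 hearts was most like the mean of the 6 rare tRNA-Val members were tRNA-Leu-CAA-4 (Pearson r = 0.990), tRNA-Ile-AAT-3 (0.985) and tRNA-Arg-CCT-2 (0.984), of 171 others. Their median and highest CPM over the hearts were 71.2 and 470, 43.5 and 324, and 435 and 822, in that order. The pattern was therefore not particular to tRNA-Val. The rare members correlated with each other at r = 0.810 to 0.994. Both 10X hearts carry these values, and the points share libraries and scaling, so the correlations are descriptions.

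Isodecoder use asks how a transcript changes relative to the others of its anticodon, which removes any effect of scaling between hearts. In all 4 AAV9-DdCBE hearts against AAV9-GFP, 5 of 8 tRNA-Val transcripts passed, all higher (edgeR diffSpliceDGE). Of all 151 transcripts so tested 14.6% were called, 22 higher and 0 lower. The relative log2 differences were 3.64 for AAC-4, 3.33 for CAC-1, 2.83 for CAC-3, 2.82 for AAC-3 and 2.66 for AAC-2, with edgeR adjusted p from 0.00222 to 0.0205. By limma's diffSplice, which refers each transcript to the mean of its anticodon's transcripts, none of these 5 rises passed (limma adjusted p 0.0594 to 0.333), and 2 members passed as lower, AAC-1/5 and CAC-2. With the 10X hearts, 6 of 8 passed, all higher, and CAC-4 (1.90, edgeR adjusted p = 5.90e-05) was the added one. Of all transcripts so tested 33.8% were called, 50 higher and 1 lower, so calls were nearly all higher outside tRNA-Val too. The leading members AAC-1/5 (-0.37) and CAC-2 (-0.23) did not pass. By limma in the 10X hearts, CAC-4 did not pass (0.14, limma adjusted p = 0.825) and both leading members did, as lower. Over all 4 AAV9-DdCBE hearts, calls fell to 1 without mouse 17, 2 without mouse 6, and 3 without mouse 5, 18 or 19. Without both 10X hearts, 0 tRNA-Val transcripts passed and 3 of all transcripts did.

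That test treats transcripts of an anticodon in a library as separate sources of error, so its p-values are too small, and the share of the leading isodecoder was also compared heart by heart. Members other than AAC-1/5 made up 1.48%, 1.52%, 3.004% and 1.67% of AAC counts in AAV9-GFP mice 5, 6, 14 and 19. They made up 27.1% in mouse 17 (95% Wilson interval 26.4% to 27.8%) and 20.9% in mouse 18 (20.1% to 21.6%), but 3.34% in mouse 25 and 2.30% in mouse 26. Mouse 25 lay above all 4 AAV9-GFP hearts and mouse 26 within their range. Intervals of this kind cover counting error only.

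For CAC, members other than CAC-2 made up 1.27%, 0.989%, 1.95% and 1.14% in AAV9-GFP mice 5, 6, 14 and 19, then 18.4% in mouse 17, 12.7% in mouse 18, 2.56% in mouse 25 and 1.57% in mouse 26. The leading share was 86.6% ± 12.5 in AAV9-DdCBE against 98.1% ± 0.730 in AAV9-GFP for AAC, and 91.2% ± 8.15 against 98.7% ± 0.422 for CAC (SD, n = 4 each). The exact two-sided permutation test gave p = 0.0571 for each anticodon (0.114 adjusted over 4 tests), where 0.0286 is the smallest value that 4 hearts against 4 can give. Neither value passed 0.05, and the AAV9-DdCBE hearts spread far more widely than the AAV9-GFP hearts.

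**Figure D2:**
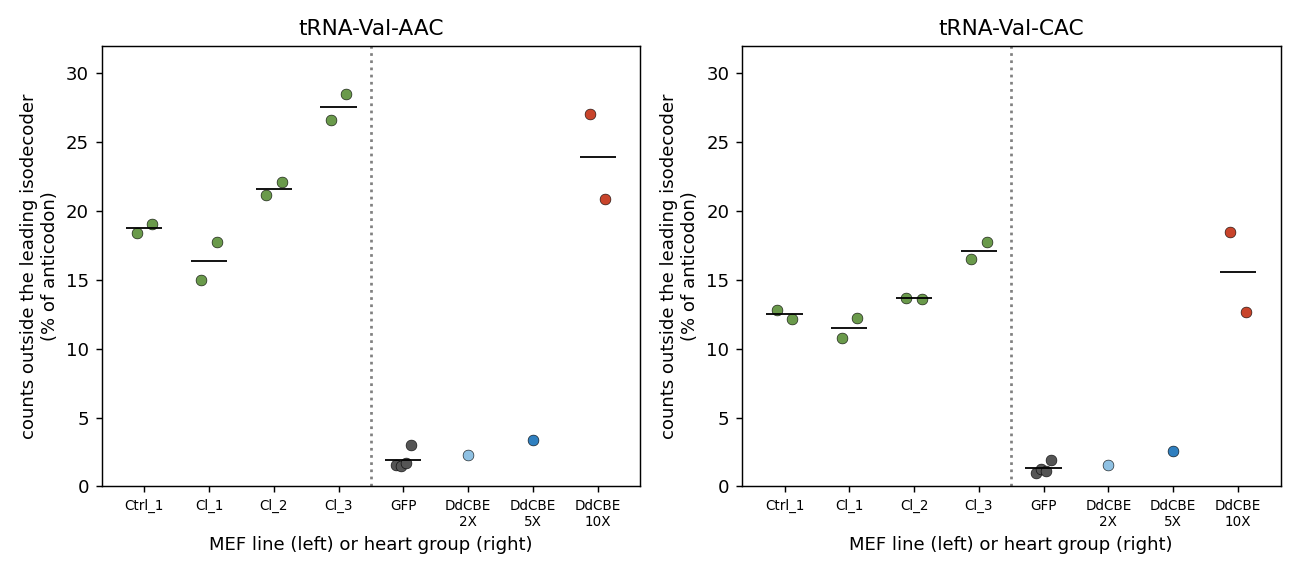
Share of anticodon counts outside the leading isodecoder, in percent, for tRNA-Val-AAC and tRNA-Val-CAC; each point is a library and each bar the mean of a line or heart group with more than 1 library. The 10X hearts reach 20.9% and 27.1% for AAC, within the MEF range of 15.005% to 28.5%. The other 6 hearts stay between 1.48% and 3.34% for AAC. For CAC the 10X hearts reach 12.7% and 18.4%, the latter above the MEF range of 10.7% to 17.7%.

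The makeup of the rare fraction in the 10X hearts differed in detail from that in fibroblasts, as a description with no test. AAC-2 took 15.3% and 12.1% of AAC counts in mice 17 and 18, and 7.53% to 15.7% in the MEF libraries. AAC-3 (6.80% and 5.17%) exceeded AAC-4 (4.93% and 3.57%) in the 10X hearts, whereas in every MEF library AAC-4 (5.83% to 7.73%) exceeded AAC-3 (1.64% to 5.09%). AAC-3 also exceeded AAC-4 in the other 6 hearts. For CAC, CAC-3 was the largest rare member in every library, with 10.4% and 6.93% in the 10X hearts and 8.67% to 11.8% in the MEFs. CAC-4 took 1.30% and 0.983% in the 10X hearts and 0.345% to 0.435% in the MEFs. No lengths come with the tables, so these shares are of reads.

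Totals of an anticodon, in which the split between isodecoders plays no part, did not pass in the hearts. In both the comparison of all AAV9-DdCBE hearts and that of the 10X hearts, 0 of the 3 tRNA-Val totals and 0% of all 70 totals were called by edgeR, with 3 and 15 of 70 at an unadjusted p under 0.05 in the comparisons in that order. The log2 differences of the 10X hearts from AAV9-GFP were -0.07 (SE 0.27, edgeR adjusted p = 0.922) for AAC, -0.13 (SE 0.30, edgeR adjusted p = 0.867) for CAC and -0.34 (SE 0.08, edgeR adjusted p = 0.177) for TAC. The TAC total holds the same counts as tRNA-Val-TAC-1, which gave -0.69 (edgeR adjusted p = 0.00915) among single transcripts. It is the same measurement, with libraries scaled and p-values adjusted over totals instead of transcripts. DESeq2 called 13 of 70 totals, TAC among them (-0.34, DESeq2 adjusted p = 0.0106), and without mouse 18 edgeR called TAC (-0.45, adjusted p = 0.0248). Over all 4 AAV9-DdCBE hearts the values were -0.12 (SE 0.23), -0.16 (SE 0.25) and -0.19 (SE 0.09), and DESeq2 called 0 of the 3 tRNA-Val totals and 2 of all 70.

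**Figure D3:**
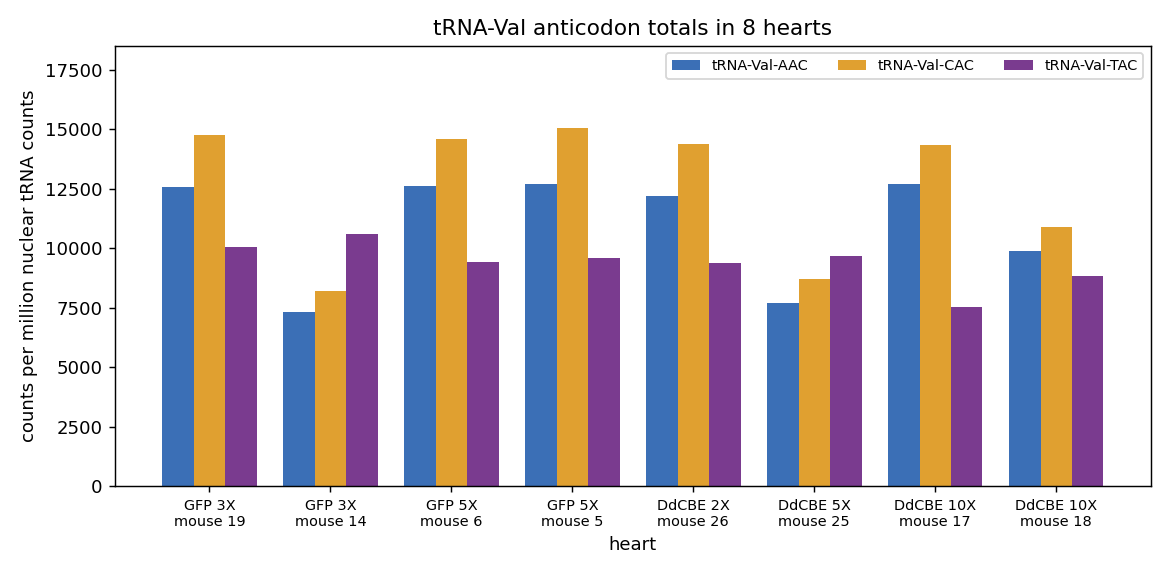
Levels of each tRNA-Val anticodon as nuclear CPM, that is CPM over nuclear tRNA counts alone, with 3 bars for each of the 8 hearts. AAC and CAC are low in mice 14 and 25 (7334 and 7718 for AAC), one of each vector, where TAC is the tallest bar.

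The hearts differed more in AAC and CAC totals than the vectors did. In nuclear CPM, a scale that leaves out the mitochondrial tRNAs, AAC held 12697, 12614, 7334 and 12574 in AAV9-GFP mice 5, 6, 14 and 19 and 12698, 9902, 7718 and 12189 in AAV9-DdCBE mice 17, 18, 25 and 26. CAC held 15054, 14597, 8187 and 14754, and then 14322, 10879.7, 8727 and 14365. Mice 14 and 25 were lowest in both, mouse 18 was between, and the other 5 hearts lay together. TAC held 9572, 9416, 10587 and 10075 with AAV9-GFP and 7541, 8850.4, 9672 and 9374 with AAV9-DdCBE. TAC therefore made up 40.6% and 37.0% of tRNA-Val counts in mice 14 and 25 and 21.8% to 29.9% in the other 6 hearts. Mice 14 and 25 also had the lowest depth, and the part of depth in this split was not tested.

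The gain of the rare members was set against the loss of the leading ones as differences between group means. In nuclear CPM, the rare AAC members together gained 2548 in the 10X hearts over AAV9-GFP, and the mean of AAC-1/5 differed by -2552, which left a net difference of -4.61. The rare CAC members together gained 1845 and the mean of CAC-2 differed by -2392, a net difference of -547, and that of TAC-1 by -1717. These are sums of group means with no test of their own. The edgeR fit on nuclear rows applies TMM, which nuclear CPM do not, so it does not test these sums. In that fit AAC-1/5 (-0.54, adjusted p = 0.136) and CAC-2 (-0.46, adjusted p = 0.219) did not pass. The near balance in AAC rested on the hearts averaged. Without mouse 14 the AAC gain was 2554 and the loss -3882, with a net difference of -1328, and the net difference of CAC was -2201.

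In nuclear CPM the 10X hearts also differed from each other in the sign of the net difference. Against the mean of the 4 AAV9-GFP hearts, the net AAC difference was 1393 in mouse 17 and -1403 in mouse 18, and the net CAC difference was 1174 and -2268. On the CPM scale, which includes the mitochondrial tRNAs, the AAC gain was 1111 against a loss of -2996 and the CAC gain 796 against a loss of -3245. There the net AAC difference was negative in both hearts, -1621 in mouse 17 and -2149 in mouse 18. Whether gain and loss balanced depended on the scale and on the hearts. The share of mitochondrial counts in mouse 17 stands beside the CPM values, and its part in them was not tested.

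In the MEFs tRNA-Val-TAC-1 was the sole member that passed in each of the 3 Cl lines. Against the control line Ctrl_1, the mean of the 3 Cl lines called 3 of 11 tRNA-Val transcripts, 2 higher and 1 lower, where 48.3% of the 201 transcripts tested were called. The share of members called was below that background. The median log2 difference was 0.08 over the 11 tRNA-Val transcripts and 0.06 over all 175 nuclear transcripts. Of the 26 other transcripts with A at the wobble position 3 rose and 8 fell, and of the 20 tRNA-Ile and tRNA-Leu transcripts 4 rose and 7 fell.

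tRNA-Val-TAC-1 was the member that fell in all 3 lines. It had 18054 and 17969.8 CPM in the 2 Ctrl_1 libraries, 12954 and 12709 CPM in Cl_1, 13303 and 14184 CPM in Cl_2, and 13695 and 14428 CPM in Cl_3. The Ctrl_1 libraries lay above all 6 Cl libraries with no overlap. Here and for the members below, separation of this kind was not counted over the other transcripts. Of all 201 tested, 48.3% were called for the mean of the lines. For the mean of the lines the fall was 1.33-fold (log2 -0.41, SE 0.05, edgeR adjusted p = 3.98e-04), with -0.49 in Cl_1, -0.39 in Cl_2 and -0.36 in Cl_3, all past the threshold against the same control libraries. With the libraries of a line summed, 3 lines against 1, the value was -0.41 with an edgeR adjusted p of 0.115.

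The rare AAC members were highest in Cl_3. tRNA-Val-AAC-2 had 1437 and 1733 CPM in Ctrl_1, 1360.1 and 1591 CPM in Cl_1, 1957 and 2258 CPM in Cl_2, and 2556 and 2680.3 CPM in Cl_3. Cl_1 overlapped with Ctrl_1, and both Cl_2 and Cl_3 lay above it. tRNA-Val-AAC-3 had 398 and 496 CPM in Ctrl_1, 296 and 387 CPM in Cl_1, 503 and 563 CPM in Cl_2, and 737 and 870.1 CPM in Cl_3. Here Cl_1 was the lowest line and Cl_3 the highest. tRNA-Val-AAC-4 had 853 and 1093 CPM in Ctrl_1 and 1053 to 1323 CPM in the 6 Cl libraries. Averaged over the lines, AAC-2 rose by log2 0.34 (SE 0.11; adjusted p = 0.0338 by edgeR), a call lost, among other settings, without replicate 1 of Ctrl_1 (0.20, edgeR adjusted p = 0.290) and with nuclear rows only (0.28, edgeR adjusted p = 0.0656), and AAC-3 (0.24, SE 0.15) and AAC-4 (0.31, SE 0.12) did not pass.

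tRNA-Val-CAC-1 moved in opposite directions between lines. It had 459 and 519 CPM in Ctrl_1, 196 and 274 CPM in Cl_1, 545 and 641 CPM in Cl_2, and 736 and 806 CPM in Cl_3. No line overlapped with another, and such separation was not counted over the other transcripts. It fell 2.09-fold in Cl_1 (log2 -1.06, SE 0.19, edgeR adjusted p = 0.00437) and rose 1.57-fold in Cl_3 (log2 0.66, SE 0.18, edgeR adjusted p = 0.0220), with 0.28 in Cl_2, so its mean over the lines was -0.04 (SE 0.15). The rarest tested members were CAC-4 (53.6 to 67.2 CPM), CAC-6 (3.60 to 5.70 CPM) and CAC-8. tRNA-Val-CAC-8 had 3.92 and 3.09 CPM in Ctrl_1 and 5.26 to 7.75 CPM in the 6 Cl libraries, which are 8 to 24 counts, and rose by 0.84 (SE 0.23, edgeR adjusted p = 0.0180). DESeq2 gave CAC-8 an adjusted p of 0.408, and the call was also lost without either Ctrl_1 library or without replicate 1 of Cl_2. CAC-8 passed the filter on low counts only with the Cl libraries, where it is high, so its call is no support for a rise. The counts of members called higher for the mean of the lines, in Cl_1 and in Cl_3 include it.

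By line, Cl_1 called 3 of 11 members, 1 higher and 2 lower, with 33.8% of all transcripts called. Cl_2 called 2 of 11, AAC-2 higher (0.41, edgeR adjusted p = 0.0366) and TAC-1 lower, with 46.3% called. Cl_3 called 6 of 11, 5 higher and 1 lower, with 50.7% called. The members higher in Cl_3 were AAC-2 (0.72), AAC-3 (0.85), AAC-4 (0.44), CAC-1 and CAC-8 (0.83). Without replicate 1 of Ctrl_1, or without replicate 2 of Cl_3, 3 members passed in Cl_3, and CAC-1 was not among the calls (0.56 and 0.59, edgeR adjusted p = 0.110 and 0.0831). The F test of whether the 3 Cl lines differ from each other called 3 of 11 members, where 24.4% of all transcripts were called. They were CAC-1 (edgeR adjusted p = 0.00210), AAC-3 (0.00824) and AAC-2 (0.0107), with Cl_3 above Cl_1 by 1.72, 1.24 and 0.83 and Cl_2 above Cl_1 by 1.34, 0.64 and 0.51 on the log2 scale.

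**Figure D4:**
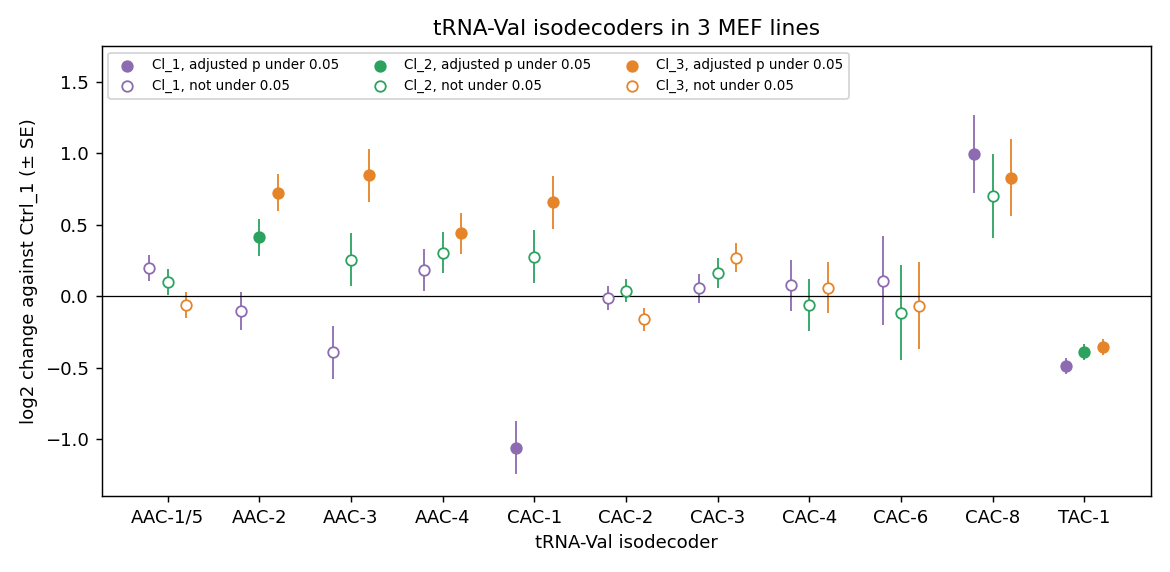
Log2 change of 11 tRNA-Val isodecoders in each Cl line against Ctrl_1, with SE bars; filled points have an edgeR adjusted p under 0.05. TAC-1 is below 0 in all 3 lines, and CAC-1 runs from -1.06 in Cl_1 to 0.66 in Cl_3.

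The leading AAC and CAC members did not pass in any line. tRNA-Val-AAC-1/5 had 11905 and 14110.1 CPM in Ctrl_1 and 12208 to 15344 CPM in the Cl libraries, with a mean difference of 0.08 (SE 0.07). tRNA-Val-CAC-2 had 12733 and 14858 CPM in Ctrl_1 and 12071 to 14662 CPM in the Cl libraries, with -0.05 (SE 0.07). tRNA-Val-CAC-3 had 1354 and 1467 CPM in Ctrl_1 and 1362 to 1725 CPM in the Cl libraries, with 0.16 (SE 0.08). For each of these 3 isodecoders at least 1 Ctrl_1 library lay within the range of the Cl libraries.

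In the edgeR test of isodecoder use, the mean of the Cl lines gave 0 calls among 10 tRNA-Val transcripts, where 23.7% of 169 transcripts were called, 49 of 169 had an unadjusted p under 0.05, and limma's diffSplice on voom values called 1 of the 10, CAC-8 (0.82, limma adjusted p = 0.00922). By edgeR CAC-8 had 0.86 (adjusted p = 0.0889). Members other than AAC-1/5 made up 18.4% and 19.1% of AAC counts in Ctrl_1, 15.005% and 17.8% in Cl_1, 21.2% and 22.1% in Cl_2, and 26.6% and 28.5% in Cl_3. Cl_1 was below Ctrl_1, and Cl_2 and Cl_3 above it. For CAC the shares were 12.8% and 12.2% in Ctrl_1, 10.7% and 12.2% in Cl_1, 13.7% and 13.6% in Cl_2, and 16.5% and 17.7% in Cl_3. With single libraries exchanged, 6 Cl against 2 Ctrl_1, the exact two-sided permutation test gave p = 0.571 for AAC and p = 0.500 for CAC, where 0.0714 is the smallest value possible, and it ignores that the libraries of a line share their source. With the line as the unit, 3 against 1, the exact test has 4 splits, cannot go below 0.500 and so cannot pass 0.05.

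Anticodon totals moved in opposite directions in the MEFs. For the mean of the Cl lines, 2 of the 3 tRNA-Val totals passed, 1 higher and 1 lower, where 42.9% of 70 totals were called. The AAC total had 14593 and 17432 CPM in Ctrl_1 and 16896 to 18604 CPM in the Cl libraries. In the fit on totals it differed by log2 0.27 (SE 0.07, adjusted p = 0.0123 by edgeR). That fit scales the libraries on the totals, whereas the CPM are scaled on single transcripts. Levels and log2 values of totals therefore do not match in size. The groups overlapped, and the call was lost without replicate 1 of Ctrl_1 (0.09, edgeR adjusted p = 0.316), without replicate 1 of Cl_1 or replicate 2 of Cl_2, and with nuclear rows only (0.21, edgeR adjusted p = 0.0611). The CAC total did not pass (0.11, SE 0.06, edgeR adjusted p = 0.127), and its mean CPM was lower in the Cl libraries (15576) than in Ctrl_1 (15763). The TAC total gave -0.28 (SE 0.04, adjusted p = 7.12e-04 by edgeR). It holds the counts of tRNA-Val-TAC-1 alone, which gave -0.41 among single transcripts. With the libraries of a line summed, 3 lines against 1, neither call held: AAC had 0.24 (edgeR adjusted p = 0.0704) and TAC -0.28 (edgeR adjusted p = 0.0760). TAC made up 38.2% and 34.3% of tRNA-Val counts in Ctrl_1 and 27.6% to 31.2% in the Cl libraries. AAC made up 30.9% and 33.3% against 36.7% to 39.1%. Neither anticodon overlapped between Ctrl_1 and the Cl libraries, and such separation was not counted over other anticodons.

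The mitochondrial tRNA-Val, which serves mitochondrial ribosomes and is encoded separately, had 4663 and 3768 CPM in Ctrl_1 and 1965 to 3430.4 CPM in the Cl libraries. It averaged log2 -0.67 over the lines (SE 0.19, adjusted p = 0.0225 by edgeR). By line it passed in Cl_3 (-0.81, edgeR adjusted p = 0.0287) but not in Cl_1 (-0.58, 0.111) or Cl_2 (-0.63, 0.0761). All mitochondrial tRNAs together took 3.74% and 3.41% of counts in Ctrl_1 and 2.14% to 3.01% in the Cl libraries. In the hearts the mitochondrial tRNA-Val had 29786 to 44257 CPM with AAV9-GFP and 30152 to 50141 CPM with AAV9-DdCBE. Its difference in the 10X hearts was 0.15 (SE 0.26). In the MEFs the transcripts most like the mean of the 8 tested members other than the leading ones were tRNA-Thr-CGT-3 (Pearson r = 0.950 over 8 libraries), tRNA-Gln-TTG-2 (0.903) and tRNA-Lys-TTT-2 (0.900), of 190 others. None of these was among the 3 most alike in the hearts. The 21 rows named tRX-Val had 5 counts in all in the MEFs and 0 in the hearts.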

How the data were processed

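tRNA was measured in 8 MEF libraries and 8 hearts. The authors deposited raw whole-number counts per tRNA transcript, 1 table for each set. The submitters' processing notes name cutadapt 3.5 and the build mm39, per the labels. Aligner, counter and the treatment of reads matching several tRNAs: not given in the sources used here. Groups came from the sample titles. Each table was fitted whole in R 4.3.3 with edgeR 4.0.16 (TMM, filterByExpr with minimum count 10 and minimum total 15, quasi-likelihood test). P-values were adjusted by Benjamini-Hochberg across every row tested, at a threshold of 0.05. Anticodon totals were tested on summed counts, and isodecoder use with diffSpliceDGE, transcript within anticodon. SE is the log2 difference divided by the square root of F. DESeq2 1.42.0 and limma 3.58.1 served as alternatives, and scripts were tested on simulated data. Shares of the leading isodecoder were compared by exact permutation, chosen after the data were seen. Every tRNA-Val row was named by rule, with mitochondrial tRNA-Val and the 3 most alike transcripts of each table. The members, lists and the split by X label were chosen with earlier results of these data known. No library looked deposited under a second name: chi-square over degrees of freedom was 93.9 to 1781 in the 16 within-group pairs.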

Additional observations from a re-analysis of the deposited data

Results flagged for a closer look

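Within the groups of 4 hearts, 30 sets of values were examined for a heart far from the others and 7 were picked out; chance alone picks out about 1 set in 20. Mouse 14 lay far below the other AAV9-GFP hearts in tRNA-Val-AAC-1/5 (4059 CPM against 7668 to 7986), tRNA-Val-CAC-2 (4580.4 CPM against 9046 to 9487), the AAC total (4185 CPM), the CAC total (4671 CPM) and the AAC share of the leading isodecoder (96.996% against 98.3% to 98.5%). Mouse 26 lay far above the other AAV9-DdCBE hearts in AAC-1/5 (7382 CPM against 3844 to 4261) and CAC-2 (8764 CPM against 4660.1 to 4954). These values overlap, since the totals hold the leading members.

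The Cl lines differed from each other in 3 members by the edgeR F test, with adjusted p = 0.0107 for tRNA-Val-AAC-2, 0.00824 for AAC-3 and 0.00210 for CAC-1. Hearts labelled 10X differed from the mean of the 5X and 2X AAV9-DdCBE hearts in 7 members, by log2 2.63 for AAC-2, 3.35 for AAC-3, 3.92 for AAC-4, 3.04 for CAC-1, 2.91 for CAC-3, 1.44 for CAC-4 and -0.59 for TAC-1.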

How the results depend on the processing

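No value that passed under the settings of the report changed direction. Of those that passed only elsewhere, 3 did: the MEF CAC total was 0.26 without replicate 2 of Ctrl_1 and -0.04 without replicate 1, and in 10X against the other AAV9-DdCBE hearts AAC-1/5 and CAC-2 passed as lower without mouse 14 (-0.53 and -0.44) and were 0.05 and 0.17 without mouse 26. Of 1563 values of single members or totals under an alternative, 1417 kept their side of the threshold, 44 passed anew and 102 no longer passed. The 5 large rises in the 10X hearts passed in all alternatives, as did the fall of CAC-1 in Cl_1. Averaged over the Cl lines 3 members passed, 0 with the libraries of a line summed, and 1 to 3 with 1 library left out. Of the MEF totals 2 passed, 1 with nuclear rows only, 0 with lines summed, and 1 to 3 with 1 library left out. MEF isodecoder use gave 0 calls, and 1 by limma's diffSplice. Cl_2 gave 2 calls, 1 with nuclear rows only and 1 to 3 with 1 library left out; Cl_3 gave 6, and 3 to 7 with 1 left out. AAV9-DdCBE against AAV9-GFP gave 0 calls, 5 by DESeq2, 4 with library totals, and 0 to 5 with 1 heart left out. Isodecoder use there gave 5 calls, 2 by limma's diffSplice (both lower, the leading members, since it refers to the mean of transcripts), 0 without both 10X hearts, and 1 to 5 with 1 heart left out. Totals in the 10X hearts gave 0 calls, 1 by DESeq2 and 0 to 1 with 1 heart left out. For the rest the cause was not tested. The replicate numbers of the MEF lines were not treated as pairs. Their deviations correlated weakly, all above 0 (0.07 to 0.25 over 6 pairs of lines), and whether a number marks a shared batch was not tested. With the replicate block, averaging the lines called 4 members and 105 of 201 transcripts, against 3 and 97. With 8 to 24 counts in the MEFs, CAC-8 is limited by depth, and it passed the filter on low counts only with the Cl libraries.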
